A study of Mus musculus with 12 samples.

Results

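Complement is made largely by the liver, but stromal and myeloid cells of other tissues also express parts of it. The 8 genes described here are 4 components and 4 regulators of the system: C2, C3, C4b and Cfb, and Cfi, Serping1, Cd55 and Cd59a. They were chosen by name, and all 8 were found among the 23329 gene symbols listed for each library. Their transcript levels were followed by stage and by treatment in primary stromal cultures of the mouse small intestine.

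Strand-specific, polyA-selected RNA was sequenced from 12 libraries in 4 groups of 3. The cells came from mice on the C57BL6/J background, either from E14.5 embryos, pooled for each culture, or from adult animals. Cultures of every group were grown to confluence with the kinase inhibitor Y27632 and used at early passage. Each stage was treated for 6 h with lipopolysaccharide (LPS) from Escherichia coli O111:B4, stated as 10 µg/µl, or with PBS as vehicle. The labels call the cells intestinal myofibroblasts, but each culture holds every cell type that adheres and grows after removal of the epithelium, so that fewer cells of a type and less RNA per cell cannot be told apart in these bulk libraries. P-values measure the spread between these cultures, and comparisons that share a group of libraries are not independent of each other.

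Complement is a proteolytic cascade. The classical and lectin pathways cleave C4 and C2 to form 1 C3 convertase, and the alternative pathway forms another from C3b and factor B. Cleavage of C3 coats targets for phagocytosis and releases anaphylatoxins, and the terminal components build a pore in the target membrane. Host cells are protected by regulators that inactivate the initiating proteases, dissociate or degrade the convertases, or block the pore. C3 and factor B are well known as acute-phase genes that respond to inflammatory signals.

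Between 18850224 and 32672370 sense-strand reads were counted to genes in each library, so that 3 counts, taken as the floor of detection, corresponded to between 0.0897 and 0.145 counts per 1000000 counted reads (CPM, after TMM scaling of the library total). All 10 fibroblast and myofibroblast markers were over 3 counts in every library, with summed levels of 21550 to 42560 CPM. The cultures were not pure. The summed level of 11 macrophage markers, each detected above the floor in all embryonic libraries, was 198, 389 and 2290 CPM in embryonic PBS replicates 1, 2 and 3 and 158, 798 and 1695 CPM in embryonic LPS, against 15.9 to 174 CPM in the adult libraries. Adult replicate 2 of either treatment stood apart by its 6 endothelial markers, which summed to 1791 and 1720 CPM against 8.37 to 378 CPM elsewhere. The 7 hepatocyte markers summed to 0.587 to 2.08 CPM, and Ttr was at 0 in every library. Within a stage, LPS and PBS libraries that share a number deviated together from their group means, with correlations across genes of 0.61 to 0.85 in 6 pairs. Tests are therefore given without and, where it changes a call, with a replicate block within stage.

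In the GRCm38.p6 RefSeq annotation, 4 of the 8 genes lie on chromosome 17, all on the minus strand. C4b (chr17:34728139-34743902), Cfb (chr17:34856374-34862514) and C2 (chr17:34862602-34882100) sit within 154.0 kb in the class III region of the major histocompatibility complex, with 87 bases between Cfb and C2. C3 (chr17:57203967-57228136) is 22.3 Mb away. Serping1 (chr2:84765360-84775444, minus strand) and Cd59a (chr2:104095753-104115410, plus strand) share chromosome 2, Cfi is at chr3:129836727-129875332 on the plus strand and Cd55 at chr1:130429798-130465009 on the minus strand. The longest GENCODE M21 transcripts of these genes with a RefSeq match run from 1768 bases in 8 exons for Serping1 to 5379 bases in 41 exons for C4b.

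**Figure D1:**
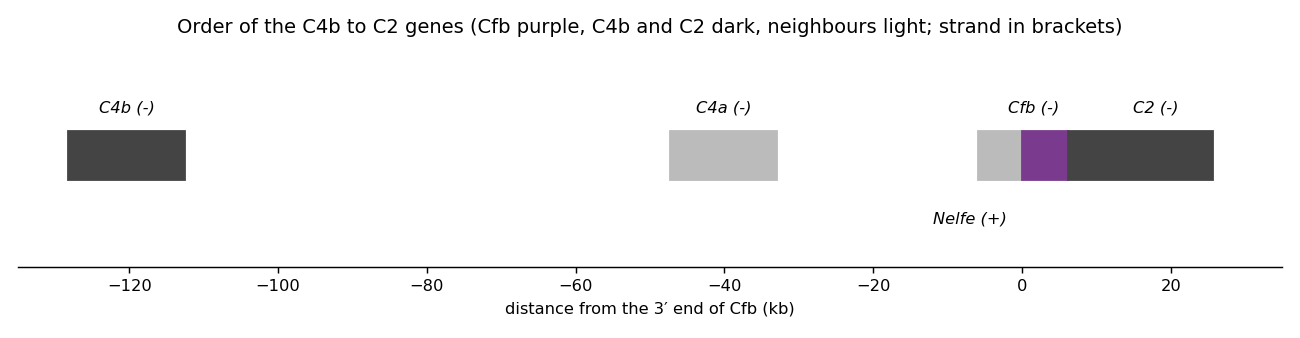
Map of the C4b, C4a, Nelfe, Cfb and C2 genes drawn to scale by distance in kb from the 3′ end of Cfb. Cfb is purple, C4b and C2 are dark and the neighbours are light, and Nelfe, the 1 gene on the plus strand, ends 1 base from Cfb.

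Some reads cannot be assigned to a single member with certainty. C4b shared 1248 of its 5305 stretches of 75 bases (23.5%), the read length, with its neighbour C4a, Cd55 shared 9.39% with Cd55b and Cd59a shared 1.73% with Cd59b, while the other 5 genes shared none. Because only uniquely mapped reads were counted, the levels of C4b and Cd55 leave out reads from such stretches. C4a itself had 2 to 17 counts per library and Cd55b 0 to 4. Zbtb12 overlaps C2 and Gm16083 overlaps Cd55 on the opposite strand, and C2 and Cfb both overlap a same-strand model, Gm20547, in GENCODE M21.

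Levels per length, as CPM divided by the transcript length in kilobases (RPKM), put the membrane regulators highest in embryonic PBS cultures. Cd59a, which blocks assembly of the pore, was at 36.5 ± 11.97 RPKM (SD, n = 3) and Cd55, which dissociates the C3 convertases, at 24.7 ± 8.11 RPKM. The SDs of these 2 levels overlapped. Serping1, the inhibitor of the C1 proteases, followed at 5.92 ± 2.28 RPKM and C2 at 4.37 ± 1.72 RPKM, again within each other's spread, and the other 4 genes were under 1 RPKM. In adult PBS cultures the order was Cd59a at 54.7 ± 21.0, Serping1 at 36.7 ± 17.6, Cd55 at 21.7 ± 5.78, C3 at 20.1 ± 11.9 and C2 at 4.26 ± 1.94 RPKM. Neighbours in this order overlapped within 1 SD, except C3 and C2, whereas Cd59a stood beyond the spread of Cd55 and C3. C3, the central component, was thus next to Cd55 in adult PBS cells and under every embryonic level of Cd55. After LPS the embryonic order was Cd59a at 30.8 ± 6.70, Cd55 at 30.4 ± 15.7, Serping1 at 11.8 ± 8.85, C3 at 7.08 ± 5.94, C2 at 7.04 ± 3.03 and Cfb at 4.37 ± 4.17 RPKM, where all neighbours overlapped. The adult order after LPS was Cd59a at 52.7 ± 23.1, Serping1 at 41.0 ± 17.3, C3 at 32.2 ± 11.9, Cd55 at 21.4 ± 7.38, C2 at 4.27 ± 1.87 and Cfb at 1.23 ± 0.218 RPKM. Here Cd55 was separated from C2, and C2 from Cfb, by more than their SDs, and the other neighbours overlapped. C4b and Cfi were under 1 RPKM in all 4 groups.

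**Figure D2:**
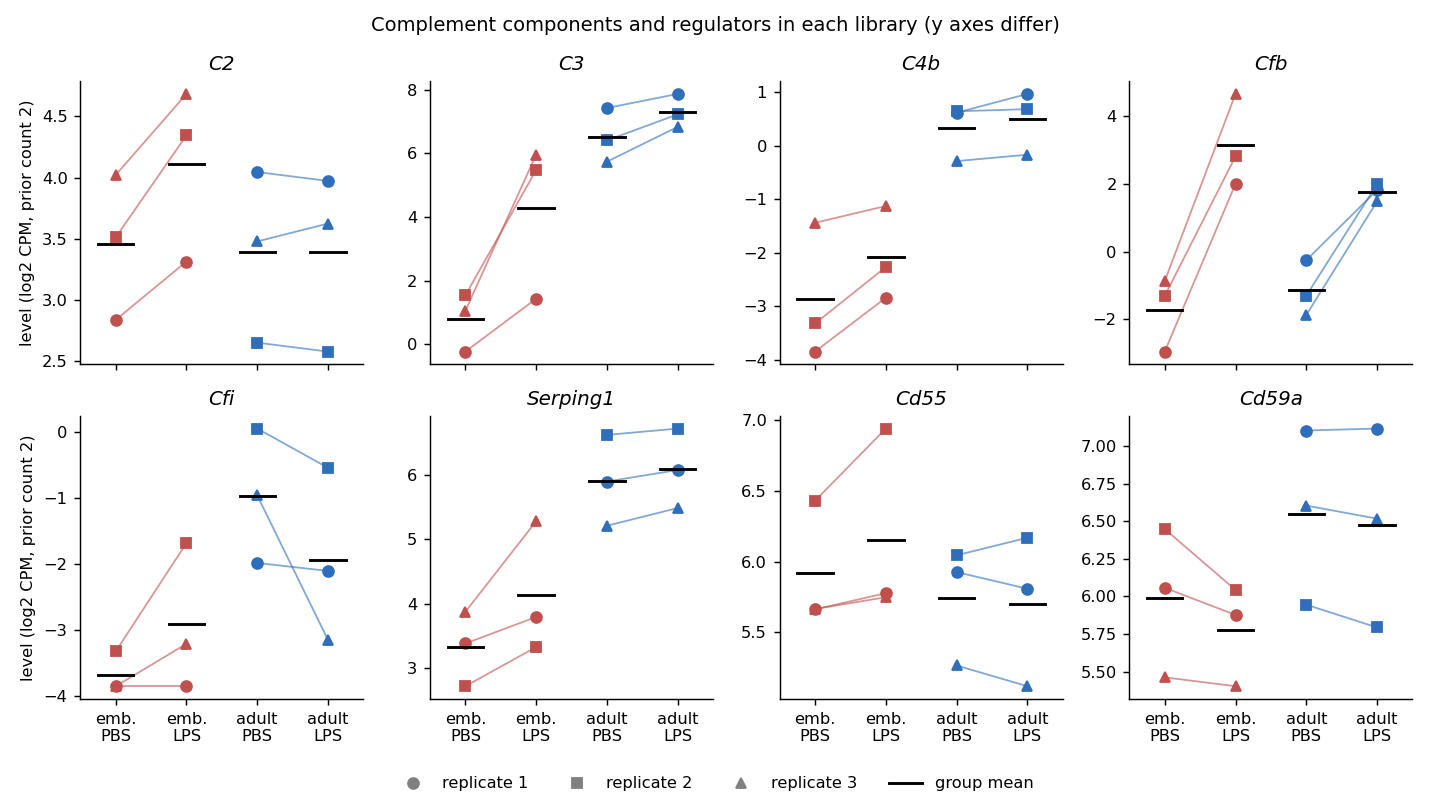
Level of each gene as log2 CPM (prior count 2, y axis, scaled per panel) in the 12 libraries by group (x axis), with a symbol for each replicate number, lines that join same-numbered LPS and PBS libraries within a stage, and black bars for group means. Cfb rises along all 6 lines, and C3 in embryonic replicate 1 reaches a lower level after LPS than in replicates 2 and 3.

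LPS, a bacterial stimulus of inflammation, was first compared with PBS in embryonic cultures. Cfb, C3, C2 and Serping1 were higher after LPS, by factors that ranged from 38.1-fold for Cfb to 1.59-fold for C2 with the replicate block. Among the 7 of 8 genes that passed the filter on low counts, 1 (Cfb) passed adjusted p under 0.05 as higher without the block and none as lower, where 2.67% of all 13038 genes tested were higher and 0.0767% lower. With the replicate block, 4 passed as higher and none as lower, against 9.43% and 3.11% of all genes. Over the 7 genes the median difference on the log2 scale was 0.81 without and 0.84 with the block, beside 0.00 in both fits over all genes tested.

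Cfb encodes factor B, the serine protease of the alternative pathway convertase. In embryonic PBS cultures 2, 11 and 16 reads were counted, or 0.0603, 0.335 and 0.478 CPM, in replicates 1, 2 and 3. After LPS there were 112, 201 and 645 reads, or 3.93, 6.94 and 25.1 CPM. The groups did not overlap, every LPS library being above every PBS library, a separation that 7.58% of all tested genes showed in this direction. The log2 fold change was 5.34 (SE 0.89, 40.5-fold) with a Benjamini-Hochberg adjusted p of 0.0113 in edgeR's quasi-likelihood test. With the block it was 5.25 (SE 0.38, adjusted p 7.856e-05). Cfb passed the filter on low counts only through its LPS groups. The call was lost without embryonic PBS replicate 1 (adjusted p 0.0569, log2 fold change 4.85) and when the adult libraries were left out of the fit (adjusted p 0.155), and with the block it passed whichever library was left out.

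The strand of the reads mattered for Cfb. Nelfe, listed under its older symbol Rdbp, is transcribed towards Cfb from the plus strand and ends 1 base away. Reads on the strand opposite to Cfb numbered 81, 119 and 81 in embryonic PBS and 85, 99 and 62 in embryonic LPS, and 89, 45 and 83 in adult PBS and 61, 67 and 58 in adult LPS. They exceeded the sense reads in every PBS library, and their ranges overlapped between treatments in both stages. Counted without regard to strand, the log2 fold change of Cfb in embryonic cultures was 2.32 in place of 5.34.

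**Figure D3:**
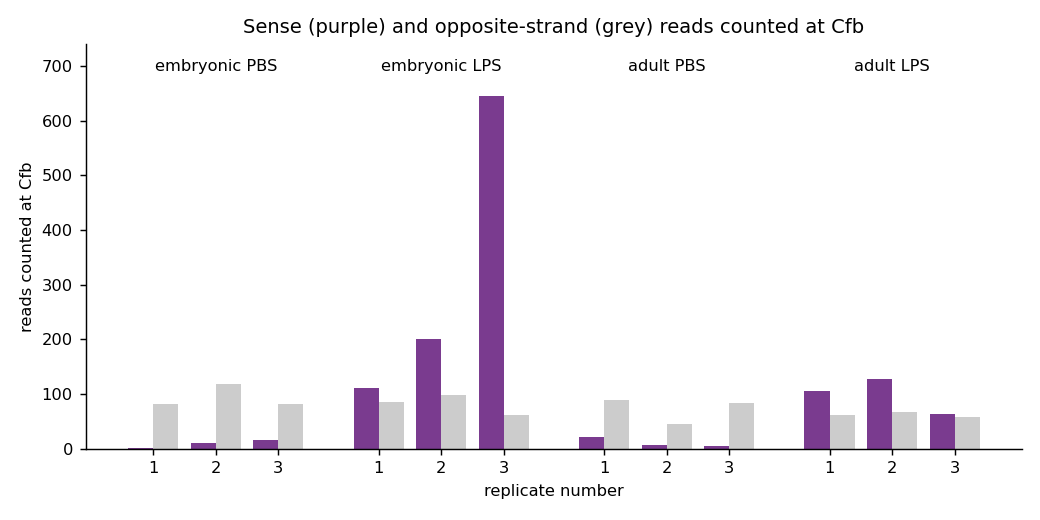
Reads counted at Cfb (y axis, linear from 0) in each of the 12 libraries, on its own strand in purple and on the opposite strand in grey. Sense reads go from between 2 and 21 with PBS to between 63 and 645 with LPS, while opposite-strand reads stay between 45 and 119.

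C3 is the component on which all 3 pathways converge. It was counted 26, 93 and 67 times in embryonic PBS replicates, at 0.784, 2.84 and 2.00 CPM, and 75, 1287 and 1598 times in embryonic LPS, at 2.63, 44.5 and 62.1 CPM. Replicates 2 and 3 were far above the PBS range after LPS, but replicate 1 was not, so that the groups overlapped. The log2 fold change was 4.28 (SE 0.99, 19.4-fold) and missed the threshold without the block (adjusted p 0.0518), and was 4.02 (SE 0.44, 16.2-fold, adjusted p 0.000806) with it, both by the edgeR quasi-likelihood test. Within pairs, C3 was higher by 1.66, 3.94 and 4.91 on the log2 scale in replicates 1, 2 and 3, and 23.0% of all genes were higher in all 3 pairs. Without embryonic replicate 1 of both treatments, a choice made after the values were seen, the edgeR fit without the block gave 4.46 with an adjusted p of 0.0195, and without the LPS library alone 4.83 with an adjusted p of 0.00398.

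In the embryonic LPS libraries, macrophage markers differed between the replicates in the same order as C3. Embryonic replicate 1, in which C3 and Cfb reached their lowest levels after LPS, had the lowest summed macrophage markers of the embryonic LPS libraries, 158 against 798 and 1695 CPM. The orders differed in embryonic PBS, with sums of 198, 389 and 2290 CPM beside C3 at 0.784, 2.84 and 2.00 CPM. They also differed in adult LPS, with sums of 174, 15.9 and 42.1 CPM beside C3 at 233, 149 and 114 CPM. Between treatments, 3 of these 11 markers (Adgre1, Ptprc and Fcer1g) rose and 1 (Cx3cr1) fell with LPS with the block, none passed without it, and their median log2 fold change with the block was -0.19. The differences within pairs in replicates 1, 2 and 3 were 1.66, 3.94 and 4.91 on the log2 scale for C3 and 4.95, 4.12 and 5.52 for Cfb. The part of these cells in the response of C3 and Cfb was not tested.

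C2 and Serping1 showed smaller differences that were seen only with the replicate block. C2 encodes the serine protease of the classical and lectin pathway convertase and is the immediate neighbour of Cfb. Its levels were 7.08, 11.3 and 16.2 CPM with PBS and 9.89, 20.3 and 25.6 CPM with LPS in embryonic replicates 1, 2 and 3. The groups overlapped and the replicates differed by more than the treatments, but LPS was higher within each of the 3 pairs. The log2 fold change was 0.67 (SE 0.11, adjusted p 0.00674) with the block and 0.69 (SE 0.49, adjusted p 0.818) without it.

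Serping1 was at 10.3, 6.49 and 14.6 CPM in embryonic PBS and at 13.8, 9.95 and 38.8 CPM in embryonic LPS. Here too the groups overlapped and all 3 pairs were higher with LPS, most of all in replicate 3. The log2 fold change was 0.84 (SE 0.18, adjusted p 0.0194) with the block and 0.99 (SE 0.56, adjusted p 0.652) without it, in the edgeR quasi-likelihood test. It was 0.48 with the block when embryonic LPS replicate 3 was left out, and still passed (adjusted p 0.0246).

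The membrane regulators did not pass in embryonic cultures. Cd55 was at 50.6, 86.2 and 50.7 CPM with PBS and 54.8, 123 and 53.7 CPM with LPS. Cd59a was at 66.5, 87.3 and 44.0 CPM with PBS and 58.7, 65.9 and 42.3 CPM with LPS. Both overlapped between treatments, Cd55 being higher with LPS in each pair and Cd59a lower, as 19.1% of all genes were lower in all 3. With the block the 95% interval of the log2 fold change was 0.00 to 0.47 for Cd55 (adjusted p 0.179) and -0.41 to -0.03 for Cd59a (adjusted p 0.135). A change as large as the 0.67 of C2 was outside both. The intervals without the block were wider, and covered a rise of that size for Cd55 (-0.57 to 1.17) and a fall of that size for Cd59a (-1.1 to 0.61).

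C4b and Cfi were close to the floor in embryonic cultures. C4b, which supplies the C4 subunit of the classical convertase, had 0, 1 and 10 reads with PBS and 2, 4 and 10 with LPS, and its log2 fold change of 0.81 (SE 1.01) did not pass. Cfi, the protease that degrades C3b and C4b, had 0, 1 and 0 reads with PBS and 0, 7 and 1 with LPS. With the block the 95% interval of the log2 fold change of C4b was -0.37 to 2.29, which leaves out a response of the size of that of Cfb. Cfi did not pass the filter and was not tested.

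Because the response of C3 was the one that split the embryonic replicates, the bases before its start site are shown, beside those of the other 2 members with an entry in the RefSeq promoter set of GRCm38.p6, Cd55 and Cd59a, which did not pass. The 250 bases before the annotated start were searched on both strands for NF-kB-type letters (GGGA and CC with any 4 bases between), C/EBP-type TTGC and AA with any 2 between, interferon-type GAAA and GAAA with any 2 between, STAT-type TTC and GAA with any 3 between, AP-1-type TGANTCA and the TATA box TATAAA. Matches are in capitals, and none overlapped another. The C3 stretch is chr17:57228137-57228386 (minus strand), that of Cd55 chr1:130462745-130462994 (minus strand) and that of Cd59a chr2:104095551-104095800 (plus strand). The starts used for Cd55 and Cd59a lie within the genes as annotated above.
C3: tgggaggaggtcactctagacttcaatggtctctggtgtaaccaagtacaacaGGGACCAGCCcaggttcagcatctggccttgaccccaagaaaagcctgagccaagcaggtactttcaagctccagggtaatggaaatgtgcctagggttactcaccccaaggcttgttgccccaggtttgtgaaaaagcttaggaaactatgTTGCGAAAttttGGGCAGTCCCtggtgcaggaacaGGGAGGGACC
Cd55: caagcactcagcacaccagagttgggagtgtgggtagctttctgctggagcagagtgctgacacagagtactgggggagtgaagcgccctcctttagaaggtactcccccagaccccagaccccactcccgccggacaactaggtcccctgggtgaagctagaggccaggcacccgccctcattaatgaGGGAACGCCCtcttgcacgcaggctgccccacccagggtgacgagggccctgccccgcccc
Cd59a: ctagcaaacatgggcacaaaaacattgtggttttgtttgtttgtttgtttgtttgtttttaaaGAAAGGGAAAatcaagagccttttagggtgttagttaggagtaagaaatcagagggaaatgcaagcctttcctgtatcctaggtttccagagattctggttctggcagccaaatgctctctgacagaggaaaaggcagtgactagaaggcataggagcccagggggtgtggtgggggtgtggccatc

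In C3 the NF-kB-type letters occurred 3 times, beginning 197, 33 and 10 bases before the start, with the C/EBP-type letters beginning 45 bases before it. Cd55 held the NF-kB-type letters 61 bases before its start and Cd59a the interferon-type letters 187 bases before its start. Among 32851 promoters of the same length, 17.6% held the NF-kB-type letters at least once, and the share with 3 matches was not counted. The C/EBP-type letters were held at least once by 9.56%, the interferon-type by 2.98%, the STAT-type by 7.02%, the AP-1-type by 6.75% and the TATA box by 12.4%. A match describes letters and does not show binding, and a missing match says only that the letters are not in this stretch. C2, C4b, Cfb, Cfi and Serping1 had no entry.

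In adult cultures the same comparison gave 1 gene with a large difference, Cfb. None of the 7 tested genes passed as higher or lower without the block, where 0.598% of all genes were higher and 0.00767% lower. With it 1 passed as higher and none as lower, against 4.69% and 1.51% of all genes. Without the block, 1 of the 7 was at an unadjusted p under 0.05, as were 727 of 13038 genes. DESeq2 called 1 of the members higher, and 294 of all genes in either direction.

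Cfb had 21, 7 and 6 reads in adult PBS replicates, at 0.769, 0.337 and 0.205 CPM, and 106, 127 and 63 reads in adult LPS, at 3.45, 3.91 and 2.72 CPM. All 3 LPS libraries were above all 3 PBS libraries, as for 9.10% of tested genes. The log2 fold change was 2.93 (SE 0.82, adjusted p 0.241) without and 2.96 (SE 0.37, adjusted p 0.00320, 7.77-fold) with the block. Counted without regard to strand, it was 0.83 and passed in neither fit.

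C3 was at 172, 84.7 and 53.3 CPM in adult PBS and 233, 149 and 114 CPM in adult LPS. The groups overlapped, and LPS was higher in each of the 3 pairs, by 0.44, 0.82 and 1.09 on the log2 scale, as were 24.0% of all genes in all 3. The log2 fold change of 0.78 with the block (95% interval 0.07 to 1.498) did not pass (adjusted p 0.231). C2 had 16.5, 6.22 and 11.1 CPM with PBS and 15.6, 5.90 and 12.3 CPM with LPS. Its log2 fold change was 0.00, with an interval of -0.26 to 0.26 with the block. A change as large as the embryonic 0.67 was outside that interval but within the one without the block, -1.095 to 1.095.

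None of the regulators tested passed between adult treatments, and their 95% intervals were narrow with the block. Serping1 was at 59.5, 98.3 and 36.9 CPM with PBS and 67.4, 105 and 44.7 CPM with LPS, and the interval with the block was -0.19 to 0.56. Cd55, at 60.7, 66.0 and 38.4 CPM against 56.0, 71.9 and 34.7 CPM, had an interval of -0.28 to 0.19. Cd59a, at 137, 61.5 and 97.2 CPM against 139, 55.4 and 91.5 CPM, had one of -0.26 to 0.11. C4b had 40, 31 and 22 reads with PBS and 58, 50 and 19 with LPS and did not pass in either fit (log2 fold change 0.21, SE 0.78). Cfi had 5, 20 and 13 reads against 5, 20 and 1, and was not tested because no group reached 0.5 CPM in all its libraries.

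**Figure D4:**
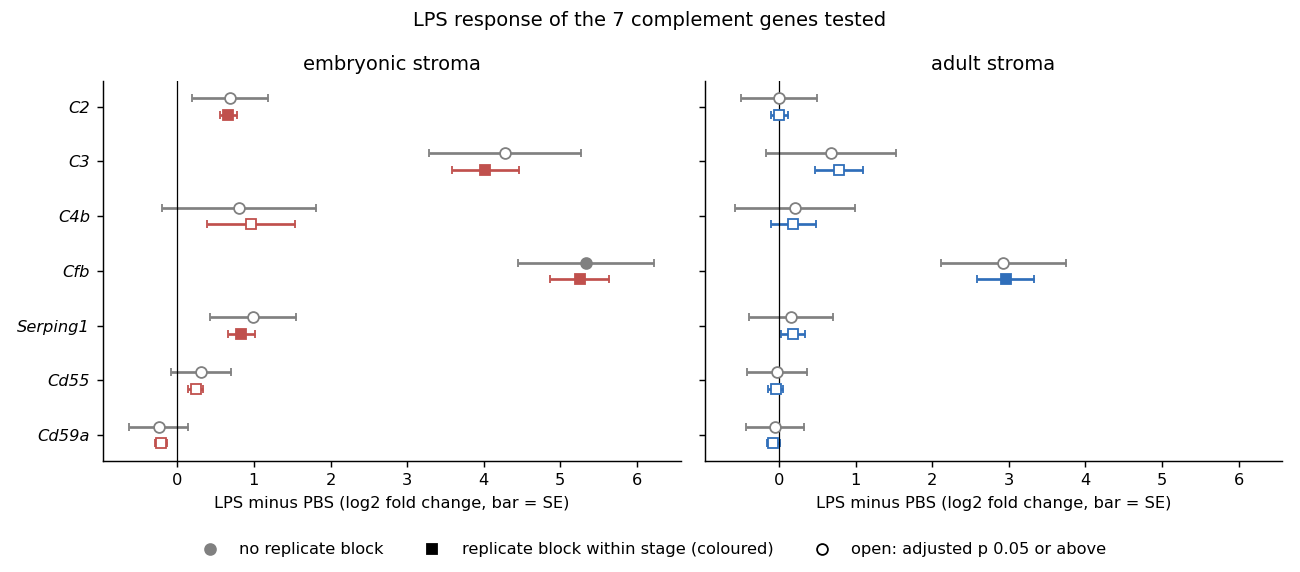
Log2 fold change of LPS over PBS (x axis) for the 7 genes tested (y axis) in embryonic (left) and adult (right) stroma, without the replicate block in grey circles and with it in coloured squares, with standard errors as bars and filled symbols for adjusted p under 0.05. Cfb is the furthest right in both stages, and C3 is at 4.02 in embryonic and 0.78 in adult stroma with the block.

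Whether the LPS response differed between the stages was tested by the interaction of stage and LPS. C3 had the larger response as a fold change in embryonic cultures, with a log2 difference of 3.24 (SE 0.53, adjusted p 0.0413) in the edgeR quasi-likelihood test with the block. It was the 1 gene of the 7 to pass with the block, where 0.798% of all genes did so in this direction and 0.0460% in the other. The 3 embryonic pair differences, 1.66 to 4.91, were all above the 3 adult ones, 0.44 to 1.09, a separation that 9.66% of all tested genes showed. Mean C3 went from 1.87 to 36.4 CPM in embryonic and from 103 to 165.5 CPM in adult cultures. The gain in CPM was thus larger in adult cultures, from a higher baseline. Without the block none of the 7 and 0% of all genes passed (C3 log2 difference 3.59, SE 1.26, adjusted p 1), and 1 of the 7 and 293 of 13038 genes had an unadjusted p under 0.05.

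The call for C3 was fragile with the block too. It was lost, at adjusted p between 0.0527 and 0.223, in 9 of the 12 fits that each left out a library, and kept without embryonic LPS replicate 1 or 3 or embryonic PBS replicate 1, while the log2 difference stayed between 2.65 and 3.66. For Cfb the log2 difference was 2.30 (SE 0.58) with the block and missed the threshold (adjusted p 0.210). For C2 it was 0.66 (SE 0.16, adjusted p 0.173) and for Serping1 0.65 (SE 0.24, adjusted p 0.460). A stage difference was therefore not shown for these 3 genes, although C2 and Serping1 passed in the embryonic comparison and not in the adult one.

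The baseline levels of the 2 stages were compared in the PBS cultures. C3 and Serping1 were lower in embryonic than in adult stroma and no member was higher, so that 2 of 7 passed as lower, where 2.57% of all genes tested were lower and 1.51% higher. C3 was at 0.784 to 2.84 CPM in embryonic and at 53.3 to 172 CPM in adult PBS libraries. The groups were far apart, as 11.9% of tested genes were without overlap in this direction, and the log2 fold change was -5.78 (SE 1.05, adjusted p 0.0177), 54.9-fold lower. The call was lost without embryonic PBS replicate 1 (adjusted p 0.0648) or replicate 3 (adjusted p 0.0566), with log2 fold changes of -5.41 and -5.83.

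Serping1 was at 6.49 to 14.6 CPM in embryonic PBS and 36.9 to 98.3 CPM in adult PBS libraries, also without overlap. Its log2 fold change was -2.63 (SE 0.59, adjusted p 0.0363), 6.196-fold lower in embryonic stroma. The call was lost in 8 of the 12 fits with a library left out, namely any PBS library or adult LPS replicate 1 or 3, with an adjusted p of up to 0.106 without adult PBS replicate 2, where the log2 fold change was -2.20. The adjusted p was 0.0567 with the PBS libraries alone.

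C4b went the same way without passing. Its 0 to 10 reads in embryonic PBS and 22 to 40 in adult PBS did not overlap, and the log2 fold change was -3.43 (SE 0.94, adjusted p 0.0695). C4b passed the filter on low counts only through its adult groups. C2 (0.03, SE 0.49), Cfb (-0.58, SE 0.85), Cd55 (0.18, SE 0.39) and Cd59a (-0.58, SE 0.39) did not pass between the stages, and their ranges overlapped. The 95% interval was -1.06 to 1.12 for C2 and -0.69 to 1.05 for Cd55, so that both covered a difference of 1 on the log2 scale. Cfi had at most 1 read in embryonic PBS libraries and 5 to 20 in adult ones.

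After LPS none of the 7 genes passed between the stages, where 3.04% of all genes were higher and 2.27% lower in embryonic stroma, and 4 had an unadjusted p under 0.05, as did 2872 of 13038 genes. DESeq2 called 2 members lower in embryonic stroma, and 1704 of all genes in either direction. C3 spanned 2.63 to 62.1 CPM in embryonic LPS and 114 to 233 CPM in adult LPS, without overlap in this direction as for 11.8% of genes (log2 fold change -2.19, SE 0.88, adjusted p 0.179). Cfb had the other order, without overlap as for 13.4% of genes, at 3.93 to 25.1 CPM in embryonic and 2.72 to 3.91 CPM in adult LPS libraries (1.83, SE 0.74, adjusted p 0.182). Serping1 was at 9.95 to 38.8 against 44.7 to 105 CPM (-1.80, SE 0.57, adjusted p 0.0939). Serping1 passed without embryonic LPS replicate 3 (-2.63, adjusted p 0.0407) and C4b, at -2.83 in the full fit (adjusted p 0.0941), passed without embryonic PBS replicate 3.

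Markers of other cell types varied between the same libraries. None of the 5 mesothelial markers passed between the stages with either treatment, but markers of some other cell types did. Of 4 endothelial markers tested, 1 was lower in embryonic stroma with PBS, and 1 was lower and 1 higher with LPS. Among 11 macrophage markers 1 was higher with PBS, and 1 of 10 fibroblast and myofibroblast markers was lower with either treatment. Of 2 epithelial markers, 1 was higher with either treatment. Over all genes, 1.51% were higher and 2.57% lower with PBS, and 3.04% and 2.27% with LPS. The mesothelial markers summed to 494 to 1375 CPM in adult PBS and 140 to 736 CPM in embryonic PBS, ranges that overlapped. The replicate with the highest sum in adult cultures, replicate 1, also had the highest C3. Adult replicate 2, with the endothelial markers, had the highest Serping1 of either treatment. The remaining adult replicates went in the opposite order in both cases. In adult PBS replicates 1 and 3 endothelial markers summed to 19.9 and 378 CPM, with Serping1 at 59.5 and 36.9 CPM. Mesothelial markers were at 736 in embryonic PBS replicate 2 and 494 CPM in adult PBS replicate 2, with C3 at 2.84 and 84.7 CPM. Among adult replicates, replicate 1 also had the highest summed macrophage markers, 161 CPM with PBS and 174 CPM with LPS. The part of these cells in the stage differences was not tested.

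The members were set beside 45 other complement genes on a list of C1, lectin, alternative, terminal, regulator and receptor genes. Of these, 40 had a count in any library and 20 passed the filter. In embryonic cultures none passed with LPS without the block, and the median was -0.05 over the 20 on the log2 scale. There 1 had an unadjusted p under 0.05, as did 1407 of 13038 genes. With the block 4 rose and 1 fell (median 0.08), where 9.43% of all genes rose and 3.11% fell. None passed in adult cultures in either fit. None had an unadjusted p under 0.05 there, where 727 of 13038 genes did without the block and 2333 with it. None passed in the interaction. There 1 had such a p without the block and 4 with it, as did 293 and 1163 of 13038 genes.

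With LPS in embryonic stroma, C1ra and C1s1, the proteases of C1, rose by 0.78 (SE 0.10, adjusted p 0.00205) and 0.66 (SE 0.08, adjusted p 0.00182) on the log2 scale with the block. The anaphylatoxin receptors C3ar1 and C5ar1 rose by 1.20 (adjusted p 0.00880) and 0.91 (adjusted p 0.0460), and C5ar2 fell by 4.03 (adjusted p 0.00478). C5ar2, counted 36, 20 and 257 times with PBS and 1, 6 and 5 times with LPS, was the 1 gene of the list with an unadjusted p under 0.05 in the fit without the block (adjusted p 0.0736). It passed the filter on low counts only through the embryonic PBS group, where it was highest.

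Between the stages with PBS, 1 of the 20 genes was higher and 3 lower in embryonic stroma, where 1.51% of all genes were higher and 2.57% lower. C1ra (-2.04, adjusted p 0.0345) and C1s1 (-3.34, adjusted p 0.0159) and the lectin Colec11 (-3.45, adjusted p 0.0177) were lower, as C3 and Serping1 were. Masp1, a protease of the lectin pathway, was higher (2.29, adjusted p 0.0277). C1s1 was at 8.53, 13.9 and 30.7 CPM in embryonic PBS and 197, 119 and 220.5 CPM in adult PBS, without overlap. With LPS, 3 of the 20 genes were higher and 2 lower in embryonic stroma, where 3.04% of all genes were higher and 2.27% lower. Cfp, which stabilises the alternative convertase, and C3ar1 were among the higher ones (2.77, adjusted p 0.0460, and 5.33, adjusted p 0.0326). Of the C1 genes, 1 passed as lower with LPS, against 2 with PBS.

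The genes for C1q, the recognition unit of the classical pathway, had higher mean levels in embryonic than in adult PBS cultures without passing. C1qa was at 23.3, 35.3 and 310 CPM in embryonic PBS replicates 1, 2 and 3 and at 14.3, 1.06 and 2.28 CPM in adult PBS, and did not pass between the stages (log2 fold change 4.38, SE 1.57, adjusted p 0.150). With LPS the groups overlapped for C1qa, at 13.6 CPM in embryonic replicate 1 and 14.98 CPM in adult replicate 1. They did not overlap for C1qb (22.7 to 246 CPM in embryonic and 0.738 to 17.8 CPM in adult LPS). Nor did they for C1qc (19.6 to 203 against 0.830 to 15.4 CPM), a separation that 13.4% of all genes showed in this direction. The highest value of C1qa was in the library with the highest summed macrophage markers.

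Transcripts of several genes between C3 and the pore were at or near the floor. Cfd, the protease that activates factor B, and Vtn had no sense-strand read in any library, which allows up to 0.145 CPM in the shallowest one. Hc, the C5 gene of the mouse, had 0 to 5 such reads per library. Of the 6 terminal component genes, C8b had none and C6, C7, C8a and C9 had at most 2 in any library, while C8g had 5 to 19. Cfi itself had at most 20 reads.

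**Figure D5:**
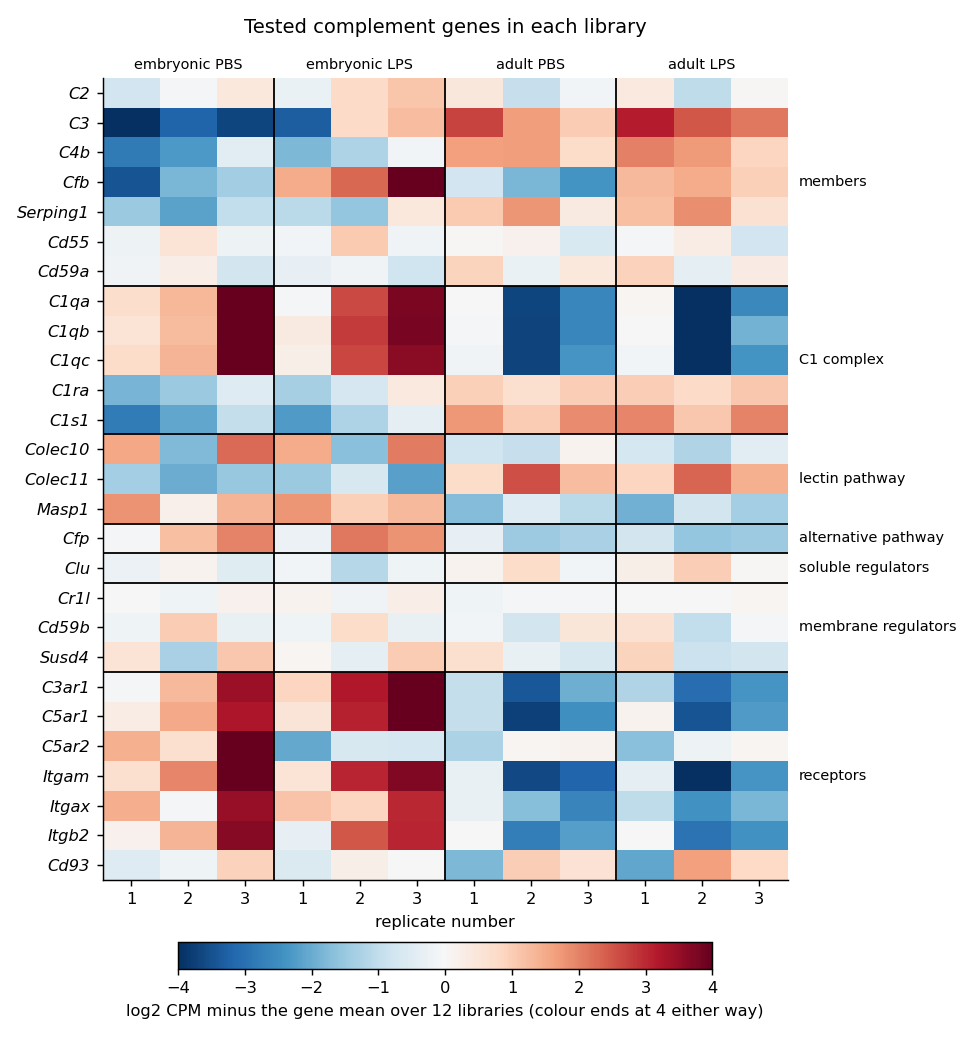
Level of the 27 complement genes that passed the filter (rows, grouped by role) in the 12 libraries (columns, by group and replicate number), as log2 CPM minus the mean of each gene, red above and blue below it, with colours ending at 4 on either side. C3, C4b, Serping1, C1ra, C1s1 and Colec11 are blue in embryonic PBS and red in adult libraries, while the C1q genes, C3ar1 and Itgam are darkest red in an embryonic replicate 3.

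The 2 genes with the pattern most like each member over the 12 libraries were found by the root mean square difference of centred log2 CPM. For Cfb they were Slc2a6 (0.451, against an SD of Cfb itself of 2.26) and Xaf1 (0.589). Slc2a6, a hexose transporter, was at 1.48 ± 0.666 and 47.1 ± 34.1 CPM in embryonic PBS and LPS and at 2.45 ± 0.203 and 19.3 ± 0.823 CPM in adult PBS and LPS (SD, n = 3). For C3, Itgb8 and Serpinb1a were nearest at 1.02 each, against an SD of 2.90. Igfbp4 was among the nearest for both C4b (0.502, after which came BC051142 at 0.520) and Serping1 (0.450, behind Ulbp1 at 0.437).

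The remaining members varied less, with SDs of 0.489 to 0.666 for Cd55, Cd59a and C2. Nearest to C2 were Mob3c (0.318) and Trim36 (0.324), to Cd55 Ddit3 (0.197) and Rps6ka5 (0.216) and to Cd59a Gas6 (0.130) and Ctdp1 (0.174). Cfi, near the floor, lay closest to Disp2 (0.556) and Ctnnal1 (0.580).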

How the data were processed

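PolyA-selected, stranded libraries were sequenced as single-end reads of 75 bp. The authors trimmed the reads, mapped them to GRCm38.p6 (mm10) with STAR, allowed at most 1 mismatch and kept uniquely mapped reads. The deposited values are raw read counts per gene symbol for each library, without normalization, for both strands together and for each strand apart. The gene annotation used for counting is not given in the sources used here. Sense-strand counts were used, and the opposite strand held 1.14% to 1.98% of the counts of the 2 strands added up. Rows that name no gene, 17.4% to 19.9% of the sense-strand column, were left out.

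Groups and replicate numbers came from the sample labels. The number within some deposited file names differs from that in the sample's title or is missing. The titles' numbers were used, and the replicate block rests on them. The tests used edgeR 4.0.16 under R 4.3.3 (quasi-likelihood, TMM factors, all 12 libraries in 1 fit of 4 groups, Benjamini-Hochberg adjustment over all tested genes) and, as an alternative, DESeq2 1.42.0. Genes with CPM above 0.5 in all libraries of at least 1 group were tested (13038 of 18810 with a count), and passing meant an adjusted p under 0.05. CPM is the count over the TMM-scaled total, and log2 CPM used a prior count of 2. Intervals are 95% intervals from the fits, and the SE is the absolute log2 fold change over the square root of F. The fit with a replicate block used the number within each stage. The numbers were taken to pair libraries because all 6 same-stage correlations exceeded 0.1 (mean 0.752), whereas those of same-numbered libraries of different stages were -0.306 to -0.00220. No 2 libraries of a group agreed within counting noise.

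The members, the list of other complement genes, the markers and the tests were chosen with earlier results of these data known. Named are all members, other complement genes that passed in any comparison (at most 4 per group), the 2 nearest patterns of each member, neighbours that can share reads, and markers. C1s1, C1s2, Cd55b, C5ar2 and Adgre1 were found under the older symbols C1s, Gm5077, Daf2, Gpr77 and Emr1. Alternatives were DESeq2 and its size factors, the likelihood ratio test, no filter, both strands together, blocks within and across stages, only the groups compared, and each library left out. Added after the data were seen were leaving out embryonic replicate 1 of both treatments and the block combined with no filter, both strands or a left-out library. 1 gene of the list of other complement genes is not reported here and was left out of its counts. Scripts were tested on simulated counts. Plots came from matplotlib 3.10.9 under Python 3.11.15.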

Additional observations from a re-analysis of the deposited data

Results flagged for a closer look

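The response of C3 to LPS differed between the stages by the interaction test with the replicate block, at a log2 difference of 3.24. This is what marked it for a closer look. Without the block it did not pass, and with it the call was lost in most fits that each left out a library. C3 was higher with LPS in 3 of 3 pairs of either stage, as were 23.0% of all genes in embryonic and 24.0% in adult cultures.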

How the results depend on the processing

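With 3 cultures a group, low counts limit C4b, Cfi and Cfb, and the spread between cultures limits the fits without the replicate block. Of the results on members, 1 rose with LPS in embryonic stroma in the fit as reported, against 2 with DESeq2, 2 with the likelihood ratio test, 0 with only the groups compared, 2 without embryonic replicate 1 of both treatments, and 4 with the replicate block, also without a filter (4) or with both strands (4). The range was 0 to 4 with a library left out. Over all genes, fits with a library left out gave 95 to 471 calls in either direction without the block and 1034 to 1974 with it. Over all genes tested, 348 were higher and 10 lower in this comparison in the fit as reported. In either direction, 684 passed with DESeq2, 611 with the likelihood ratio test and 4 with only the groups compared. There were 223 without embryonic replicate 1 of both treatments and 1635 with the replicate block, or 1832 without a filter and 1626 with both strands. In adult stroma 0 rose, against 1 with DESeq2, the likelihood ratio test, only the groups compared, and the block with or without a filter (1), and 0 to 1 with a library left out. Over all genes 78 were higher and 1 lower there as reported. Calls in either direction numbered 294 with DESeq2, 249 with the likelihood ratio test and 227 with only the groups compared. With the block there were 808, or 907 without a filter. With a library left out there were 4 to 145 without the block and 248 to 1231 with it. In the interaction 0 were larger, against 1 with the block, also without a filter or with both strands, and 0 to 1 with a library left out. Over all genes 0 passed as reported and 110 with the block, or 153 without a filter and 105 with both strands. With a library left out, 0 passed without the block and 39 to 165 with it. With PBS 2 were lower in embryonic stroma, against 1 with only the groups compared, 1 without embryonic replicate 1, and 0 to 2 with a library left out. Over all genes 335 were lower and 197 higher as reported. In either direction 173 passed with only the groups compared and 307 without embryonic replicate 1. Between 152 and 638 passed with a library left out. With LPS 0 were lower, against 2 with DESeq2 and the likelihood ratio test, and 0 to 1 with a library left out. Over all genes 296 were lower and 396 higher as reported. In either direction 1704 passed with DESeq2 and 1350 with the likelihood ratio test. Between 132 and 814 passed with a library left out.

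Log2 differences that changed sign had not passed the test. C2 in adult stroma (0.00) was -0.012 with DESeq2 size factors, -0.011 with DESeq2, -0.010 with no filter, -0.011 with the block across stages, -0.0052 with only the groups compared, -0.00026 without embryonic replicate 1 and -0.0075 with no filter and the block. With a library left out, LPS differences in embryonic stroma ran from -0.11 to 3.36 for C4b, -0.21 to 0.61 for Cd55 and -0.47 to 0.014 for Cd59a. In adult stroma they ran from -0.31 to 0.38 for C2, -0.057 to 0.47 for C4b, -0.21 to 0.59 for Serping1, -0.28 to 0.22 for Cd55 and -0.43 to 0.26 for Cd59a. The interaction ran from -0.31 to 3.15 for C4b, -0.19 to 0.64 for Cd55 and -0.51 to 0.18 for Cd59a. Between stages with PBS the ranges were -0.29 to 0.41 for C2, -1.14 to 0.13 for Cfb and -0.13 to 0.34 for Cd55, and with LPS -0.0033 to 0.77 for Cd55. The cause was not tested. The fit with the interaction could not be made with only the groups compared.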
